A study of Mus musculus with 4 samples.

Results

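The molecular chaperones of the cytosol and of mitochondria were examined in cytoplasmic RNA of the mouse neuroblastoma line Neuro2A, in which 4.5SH, a short noncoding RNA of rodents, had been knocked down. Members were the probe sets annotated to a single gene symbol that begins with Hsp or Dnaj, with Bag or Cct plus a digit, or that names one of a few cochaperones and heat shock factors. The rule left out 7 named chaperones of the endoplasmic reticulum: Hspa5, Hsp90b1, Hspa13, Dnajb9, Dnajb11, Dnajc3 and Dnajc10. It also left out the ciliary gene Hspb11 and the heparan sulfate proteoglycan Hspg2. Other genes with these prefixes stayed in, whatever the compartment of their protein. This gave 204 of 45037 probe sets, for 87 of 18193 genes. Of these, 154 probe sets for 75 genes were bright enough to be tested. No probe set with a single symbol stood for Hsp90ab1, Ptges3 or Hsf1 in the annotation used, so these genes were not analysed here.

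The knockdown group held 2 arrays of cells depleted of 4.5SH and the control group 2 arrays of cells labelled only as control. All dishes received antisense oligonucleotides at 30 nM with a lipid reagent, and both groups are cytoplasmic fractions of the same line, each labelled as biological replicates. The labels do not say which oligonucleotide control cells received, and no probe set is named for 4.5SH, so loss of 4.5SH and other effects of the oligonucleotides cannot be told apart. Whether the replicates were separate transfections is not stated, and p-values then measure only the spread between these samples. Of 12 neuroblastoma and sympathetic neuron markers 11 had a probe set and 9 were above the signal threshold. Among the 9 were Phox2a, Hand2 and Stmn2, and also Dbh, which read no more than 36.5 on any array. Th and Gata3 were below the threshold. Of 4 fibroblast, 4 glial and 3 leukocyte markers, 4 passed that threshold in all, of which the brightest probe sets of Dcn, Gfap and Mbp read no more than 50.8 on any array and Cd68 read 338 and 342 in the knockdown against 619 and 721 in the control. The other leukocyte markers, Ptprc and Cd3e, were below it. The 2% trimmed mean signal was 128 and 132 in the knockdown arrays and 149 and 143 in the control arrays, and Actb control probe sets gave a 3'/5' ratio of 2.47 and 2.49 in the knockdown against 2.60 and 2.78 in the control. Malat1, a nuclear RNA, read 76.1 and 50.2 in the knockdown against 434 and 417 in the control at its brightest probe set, while a dim one read 23.3 and 42.2 against 10.7 and 7.6. Neat1, also a nuclear RNA, was dim and lower too, at 22.8 and 12.9 in the knockdown against 41.2 and 37.2 in the control. The part of these differences in the results below was not tested.

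Chaperones bind proteins that are being made, folded or damaged. HSP70 proteins hold unfolded segments in a cycle driven by ATP: J-domain proteins of the Dnaj families bring the client and start ATP hydrolysis, and nucleotide exchange factors such as the HSP110 proteins and the BAG proteins end the cycle. HSP90 takes over late folding of kinases and steroid receptors, and the ring-shaped chaperonins enclose whole proteins, actin and tubulin in the case of CCT in the cytosol and imported proteins in the case of HSP60 and HSP10 in mitochondria. Heat shock factor 1 raises many of these genes under stress by binding repeated heat shock elements in their promoters.

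Chaperone genes moved in both directions, by small amounts. Of the 75 tested genes, each taken at its brightest tested probe set, 18 were higher and 14 lower in the knockdown at an adjusted p below 0.05 (limma on log2 of signal + 16), and 43 did not pass. Among all 11814 tested genes 41.8% were called, 8.95% higher and 32.9% lower. The corresponding shares of chaperone genes were 24.0% higher and 18.7% lower. When genes were split at a mean signal of 1000, a level chosen after the values were seen, 13 of 29 brighter chaperone genes were higher and 7 lower (13.8% and 50.9% of all genes at that level), and of 46 dimmer ones 5 were higher and 7 lower (8.31% and 30.5%). The median log2 fold change was -0.07 over the chaperone genes and -0.17 over all genes. Fold changes of called chaperones ranged between 0.14 and 0.68 in size among those higher and between 0.13 and 0.60 among those lower. The arrays of the groups did not overlap in 55 of the 75 genes, a share of 73.3%, against 71.4% of all tested genes. By probe set, 34 of 154 were higher and 27 lower, against 9.76% higher and 25.8% lower among all 22525 tested probe sets.

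**Figure D1:**
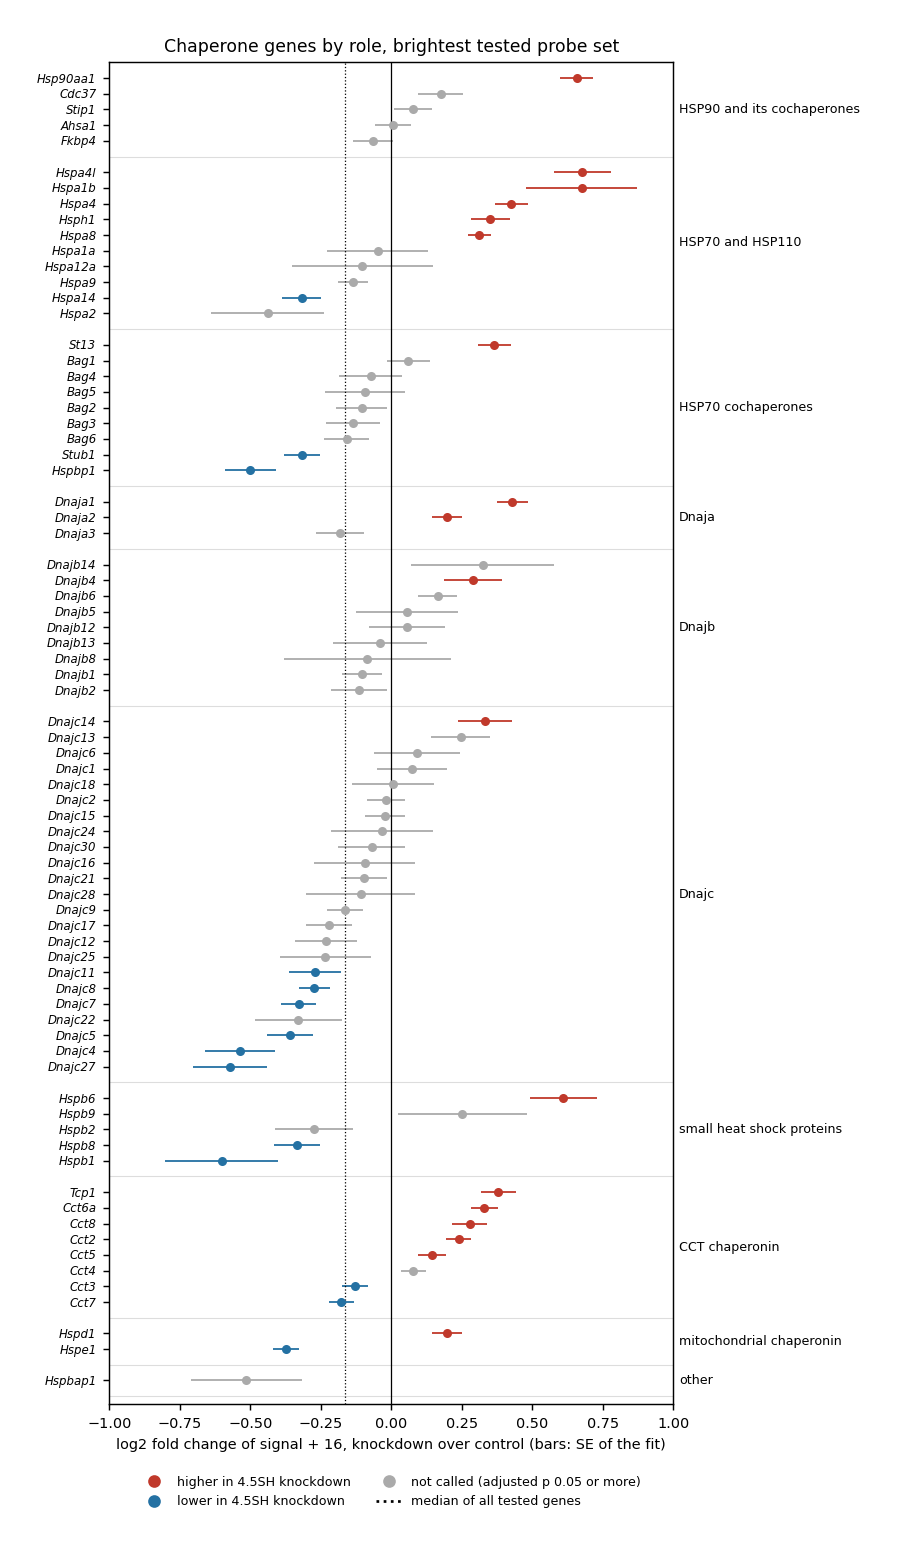
Log2 fold change of each of the 75 tested chaperone genes (knockdown over control, at the brightest tested probe set, bars are the SE of the limma fit on 2 against 2 arrays), in role groups; red genes were called higher, blue lower, grey not called, and the dotted line is the median of all tested genes (-0.17). The HSP70 and HSP110 group and CCT hold 5 higher genes each, and 6 of the 23 Dnajc genes were lower, beside 32.9% of all genes.

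The split between higher and lower depended on how the arrays were put on a common scale, since the deposited signals of most genes were lower in the knockdown. With quantile scaling 24 chaperone genes were higher and 6 lower (16.8% and 21.4% of all genes). Centring on the median of tested probe sets gave 24 and 8 (15.9% and 23.1%). After centring on the hybridization spike-ins, control RNAs added at the hybridization step, they were 6 and 24 (3.83% and 43.2%). The median of all genes on these scales was -0.04, -0.03 and -0.31. The calls of 6 genes that were higher, Hsp90aa1, Hspa4, Hspa4l, Dnaja1, Hspb6 and Tcp1, and of 5 that were lower, Hspe1, Hspbp1, Dnajc4, Dnajc7 and Dnajc27, held on the deposited scale and on all 4 other scales tried, the last of them centring on all probe sets. The other 12 higher and 9 lower genes lost their call on at least 1 of these scales.

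**Figure D2:**
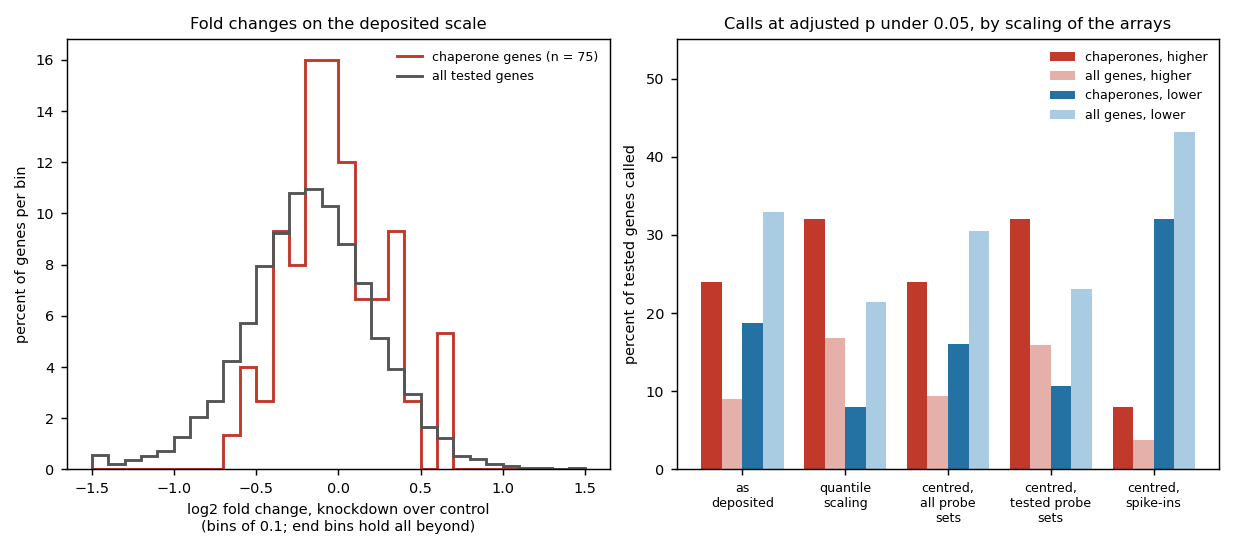
Left, percent of genes per bin of log2 fold change (knockdown over control) for the 75 chaperone genes and for all tested genes; right, percent of tested genes called higher or lower at an adjusted p below 0.05, for chaperones and for all genes, under each scaling of the arrays. Chaperones were called higher in 24.0% of cases on the deposited scale, against 8.95% of all genes, and in 8.0% against 3.83% with spike-in centring.

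Hsp90aa1, the stress-inducible form of cytosolic HSP90, had the smallest p of the set. Its brightest probe set read 4674 and 5237 in the knockdown arrays, against 3078 and 3187 in the control arrays. The log2 fold change was 0.66 ± 0.06 (SE, 2 against 2 arrays; adjusted p = 2.26e-06, limma). A second probe set read 2500 and 2586 in the knockdown, against 1227 and 1127 in the control, a log2 fold change of 1.10 ± 0.06 that was the only called member probe set above 2-fold. The dimmest, at 678 and 811 against 408 and 348, gave 0.95 ± 0.10. All 3 tested probe sets of Hsp90aa1 were thus higher with no overlap between the groups, and the brightest showed the smallest change. The 4 cochaperones that work with HSP90 did not pass on the deposited scale, though Stip1 (0.25) and Cdc37 (0.36) were called higher with quantile scaling. Stip1, the adaptor that links HSP70 to HSP90, read 1478 and 1641 in the knockdown, against 1467 and 1484 in the control (0.08 ± 0.07). Ahsa1, which activates the HSP90 ATPase, was at 0.01 ± 0.06 and the immunophilin Fkbp4 at -0.07 ± 0.07. For these 3 genes the groups' signals overlapped. Cdc37, which recruits kinases, read 642 on both knockdown arrays and 579 and 555 in the control, and its 0.17 ± 0.08 did not pass (adjusted p = 0.102, limma). Its second tested probe set pointed the other way without passing, at -0.36, and the mean of both was -0.09.

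Among the HSP70 and HSP110 proteins 5 of 10 tested genes were higher and 1 lower, beside 8.95% higher and 32.9% lower among all genes. Hspa8, the constitutive HSP70 of the cytosol, read 9258 and 9414 in the knockdown, against 7443 and 7589 in the control (0.31 ± 0.04, adjusted p = 4.71e-05, limma). Its other 2 called probe sets gave 0.34 ± 0.06 and 0.65 ± 0.07, and a dim one overlapped between groups. With spike-in centring Hspa8 was at 0.17 and did not pass. The 3 genes of the HSP110 family, which act as exchange factors for HSP70, were each higher. Hspa4 read 2007 and 1940 in the knockdown, against 1473 and 1456 in the control (0.43 ± 0.06, adjusted p = 9.43e-05, limma), although its other 2 tested probe sets did not pass. Hspa4l read 419 and 456 in the knockdown, against 287 and 249 in the control (0.68 ± 0.10, adjusted p = 0.000165, limma), with 3 of 5 probe sets called. Hsph1 read 1445 and 1590 in the knockdown, against 1222 and 1149 in the control (0.35 ± 0.07, adjusted p = 0.00143, limma), and its second probe set gave 0.60 ± 0.10. In all 3 the lowest knockdown array lay above the highest control array. The means over all tested probe sets were 0.26 for Hspa4, 0.37 for Hspa4l and 0.47 for Hsph1, and Hsph1 did not pass with spike-in centring (0.21).

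Hspa14, a ribosome-associated HSP70, was the lower one, at 961 and 1017 in the knockdown, against 1263 and 1210 in the control (-0.32 ± 0.07, adjusted p = 0.00252, limma). Its other 2 probe sets pointed the other way without passing, at 0.15 ± 0.18 and 0.47 ± 0.18, and the mean of the 3 was 0.10. With quantile scaling the brightest was at -0.15 and did not pass. Hspa9, the HSP70 of the mitochondrial matrix, read 3269 and 3534 in the knockdown, against 3819 and 3655 in the control. That difference of -0.14 ± 0.05 did not pass (adjusted p = 0.0681, limma), while 1 of its 4 other tested probe sets did, at -0.15 ± 0.06. The mean of its 5 probe sets was -0.003. With spike-in centring the brightest probe set passed, at -0.28, as it did on the brightest 25% of probe sets (-0.14).

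The heat-inducible HSP70 genes Hspa1a and Hspa1b were dim, with no array above 48.5 at the brightest probe set, where the threshold for testing was a mean of 16.9. Hspa1b read 47.2 and 46.8 in the knockdown, against 23.5 and 23.4 in the control, and was called higher (0.68 ± 0.20, adjusted p = 0.0158, limma). At this signal the size depended on the pseudocount, with 0.97 at a pseudocount of 1 and 0.34 at 64, and its other tested probe set was at 0.26 ± 0.24. The call ended without knockdown replicate 1 (0.67), without knockdown replicate 2 (0.68) and with spike-in centring (0.53). Hspa1a read 48.5 and 42.7 in the knockdown, against 46.9 and 48.4 in the control, with overlapping groups (-0.05 ± 0.18). The pair are near-identical copies, and their probe sets may not separate them. Their promoter windows in RefSeq (GRCm38.p6, 250 bases before to 50 after the start) differed at 4 of 300 bases and are shown because genes with nearly the same upstream sequence gave different calls. Capitals mark the 8-letter core GAANNTTC or TTCNNGAA, which joins 2 neighbouring units of a heat shock element.
Hspa1b, chr17:34959189-34959488, minus strand: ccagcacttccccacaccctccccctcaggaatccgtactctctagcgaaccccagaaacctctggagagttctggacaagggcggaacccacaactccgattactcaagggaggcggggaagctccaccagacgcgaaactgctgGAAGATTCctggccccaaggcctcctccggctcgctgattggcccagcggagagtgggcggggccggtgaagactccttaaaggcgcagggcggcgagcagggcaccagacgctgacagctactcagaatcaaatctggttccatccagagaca
Hspa1a, chr17:34972107-34972406, minus strand: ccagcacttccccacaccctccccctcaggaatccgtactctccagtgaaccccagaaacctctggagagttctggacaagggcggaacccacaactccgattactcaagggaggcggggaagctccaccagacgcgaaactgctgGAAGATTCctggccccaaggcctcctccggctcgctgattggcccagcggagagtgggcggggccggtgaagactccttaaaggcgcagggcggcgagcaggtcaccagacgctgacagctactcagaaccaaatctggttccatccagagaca
Each window held 1 such core, at the same place in both.

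Of 9 exchange factors and other partners of HSP70, 1 was higher, 2 were lower and 6 did not pass. Of all genes 8.95% were higher and 32.9% lower. St13, the HSP70-interacting protein Hip, which slows the release of ADP, read 1833 and 1817 in the knockdown, against 1417 and 1410 in the control (0.37 ± 0.06, adjusted p = 0.000323, limma), and its second tested probe set gave 0.34 ± 0.07. Hspbp1, an exchange factor, read 332 and 323 in the knockdown, against 454 and 486 in the control (-0.50 ± 0.09, adjusted p = 0.000709, limma). Stub1, which encodes the ubiquitin ligase CHIP that marks chaperone-bound proteins for the proteasome, read 1729 and 1823 in the knockdown, against 2331 and 2106 in the control (-0.32 ± 0.06, adjusted p = 0.00168, limma). Its other probe set gave -0.62 ± 0.07, so Stub1 was lower at both. With quantile scaling the brighter of them was at -0.14 and did not pass. The 6 tested BAG genes did not pass and lay between -0.16 for Bag6 and 0.06 for Bag1. Bag3, a stress-inducible member that serves autophagy, read 343 and 339 in the knockdown, against 397 and 356 in the control (-0.14 ± 0.10).

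**Figure D3:**
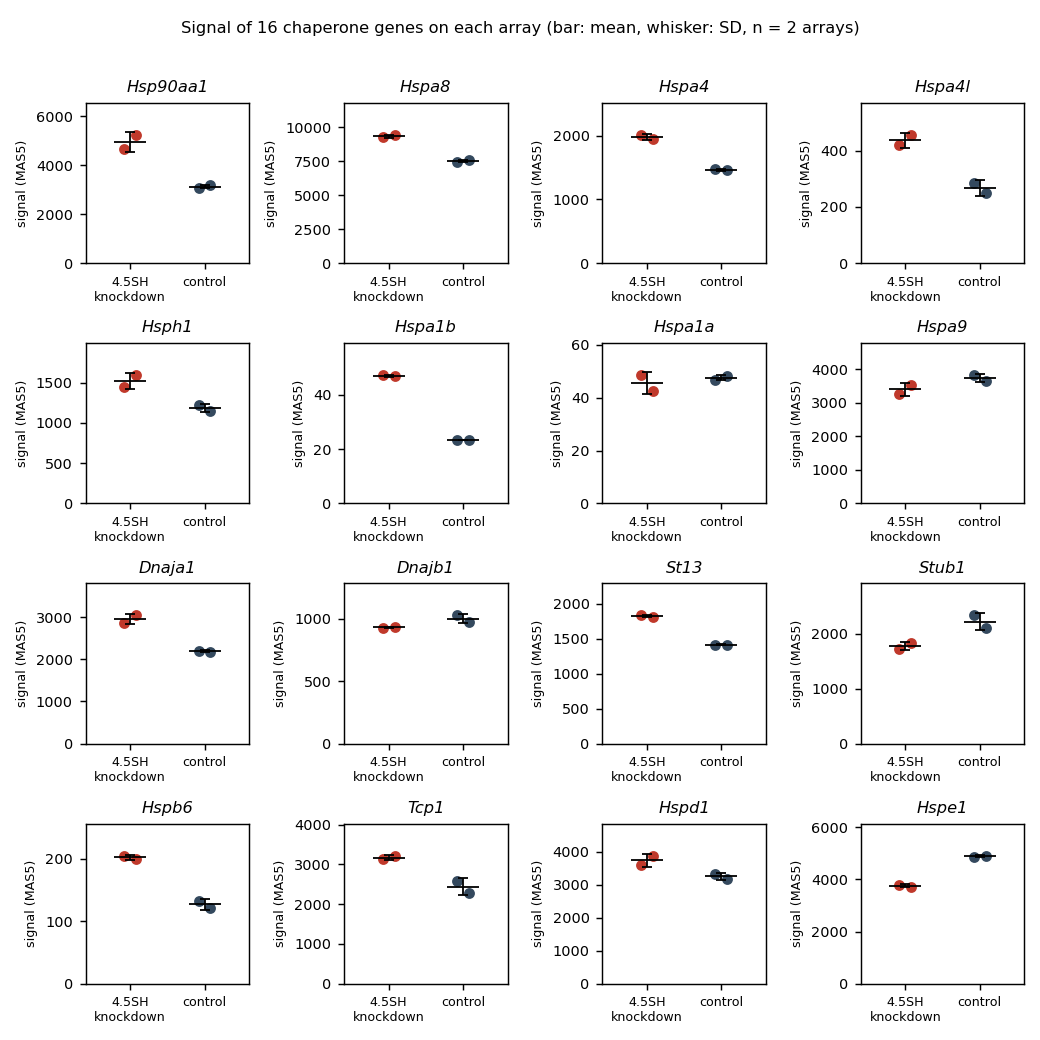
MAS5 signal of 16 chaperone genes on each array at the brightest tested probe set, 4.5SH knockdown left and control right, with mean and SD of 2 arrays. Knockdown arrays lay above control arrays for Hsp90aa1, Hspa8, Hspa4, Hspa4l, Hsph1, Hspa1b, Dnaja1, St13, Hspb6, Tcp1 and Hspd1, below them for Stub1, Hspe1, Hspa9 and Dnajb1, and overlapped for Hspa1a.

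Among J-domain proteins the 3 classes differed in their counts: 2 of 3 tested Dnaja genes were higher and none lower, 1 of 9 Dnajb genes was higher and none lower, and 1 of 23 Dnajc genes was higher and 6 lower. No test compared the classes, and the background of 8.95% higher and 32.9% lower applies to each. Dnaja1, a major J-domain partner of cytosolic HSP70, read 2867 and 3037 in the knockdown, against 2206 and 2170 in the control (0.43 ± 0.06, adjusted p = 5.07e-05, limma). Its other 2 probe sets were higher too, by 0.46 ± 0.07 and 0.95 ± 0.08. Dnaja2 read 2975 and 3094 in the knockdown, against 2682 and 2611 in the control (0.20 ± 0.05, adjusted p = 0.0105, limma), with 2 of 3 probe sets called, a mean over the 3 of 0.08, and no call without knockdown replicate 2 (0.17). Dnaja3, the J-domain protein of mitochondria, was at -0.18 ± 0.09 and did not pass. Dnajb4 read 284 and 288 in the knockdown, against 242 and 220 in the control (0.29 ± 0.10, adjusted p = 0.0415, limma). This call was lost without knockdown replicate 1 (0.30), knockdown replicate 2 (0.28) or control replicate 2 (0.23). The other 2 tested probe sets of Dnajb4 did not pass, at -0.17 and 0.47, nor did the mean of the 3 (0.20). Dnajb1, the heat-inducible J-domain partner of HSP70, read 929 and 933 in the knockdown, against 1027 and 976 in the control (-0.10 ± 0.07, adjusted p = 0.277, limma), and its second probe set was at 0.06 ± 0.08. Dnajb1 thus stood with Hspa1a and Bag3 among stress-inducible members that did not pass, and the sign of all 3 turned with quantile scaling (0.067 for Dnajb1, 0.010 for Hspa1a and 0.039 for Bag3).

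Dnajb6, a J-domain protein that holds back aggregation, gave different answers at different probe sets. The brightest read 1088 and 1146 in the knockdown, against 1020 and 970 in the control, and did not pass on the deposited scale (0.16 ± 0.07). With quantile scaling this probe set was called higher (0.34). The next read 534 and 535 in the knockdown, against 758 and 735 in the control, and was lower (-0.47 ± 0.08, adjusted p = 0.000344, limma), as was the dimmest (-0.56 ± 0.19).

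The Dnajc group is the most diverse, joined by the J domain alone. Dnajc7, a cochaperone of HSP70 and HSP90, read 1687 and 1839 in the knockdown, against 2253 and 2180 in the control (-0.33 ± 0.06, adjusted p = 0.000946, limma). Dnajc8, found with spliceosomes, read 2586 and 2718 in the knockdown, against 3111 and 3303 in the control (-0.27 ± 0.06, adjusted p = 0.00167, limma), with both probe sets lower. Dnajc5, the cysteine string protein of synaptic vesicles, read 513 and 531 in the knockdown, against 693 and 655 in the control (-0.36 ± 0.08, adjusted p = 0.00319, limma), with 3 of 5 probe sets lower. The groups were separate in all 3 genes, but with quantile scaling Dnajc8 (-0.14) and Dnajc5 (-0.17) did not pass. Also lower were Dnajc27 (-0.57 ± 0.13), Dnajc4 (-0.54 ± 0.12) and Dnajc11 (-0.27 ± 0.09), the last a protein of the mitochondrial membranes, and Dnajc14 was higher (0.33 ± 0.10). These 4 were named after their values were seen. The second probe set of Dnajc27 was at 0.15 ± 0.19. The second tested one of Dnajc11 (-0.16) and the other 2 of Dnajc14 did not pass.

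Small heat shock proteins, which hold unfolded proteins without ATP, went both ways, with 1 higher and 2 lower of 5. Of all genes 8.95% were higher and 32.9% lower. Hspb6 read 205 and 199 in the knockdown, against 133 and 121 in the control (0.61 ± 0.12, adjusted p = 0.00118, limma). Hspb8, the partner of Bag3, read 557 and 596 in the knockdown, against 701 and 760 in the control (-0.33 ± 0.08, adjusted p = 0.00564, limma), and its other 2 probe sets did not pass. The brightest did not pass with quantile scaling (-0.14) or after centring on the tested probe sets (-0.20). Hspb1, the HSP27 homologue that heat induces in many cells, was dim, at 24.9 and 22.1 in the knockdown, against 42.7 and 45.1 in the control (-0.60 ± 0.20, adjusted p = 0.0311, limma). Its change was -0.88 at a pseudocount of 1 and -0.30 at 64, and the call ended whichever array was left out (-0.65 to -0.55).

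The cytosolic chaperonin CCT is a double ring of 8 different subunits, and all 8 of its general subunits were tested. Of these, 5 were higher, 2 lower and 1 did not pass. Among all tested genes 8.95% were higher and 32.9% lower. At a mean signal of 1000 or more, where all 8 subunits lay, these shares were 13.8% and 50.9%. Tcp1, the subunit that gave the complex its other name, read 3128 and 3222 in the knockdown, against 2590 and 2292 in the control (0.38 ± 0.06, adjusted p = 0.000332, limma). Cct6a read 5245 and 5527 in the knockdown, against 4332 and 4235 in the control (0.33 ± 0.05, adjusted p = 0.000127, limma), though its second probe set did not pass (0.12 ± 0.05). Cct2 read 6715 and 6807 in the knockdown, against 5598 and 5861 in the control (0.24 ± 0.04, adjusted p = 0.000865, limma), with all 3 probe sets higher, by up to 0.53 ± 0.06. Cct8 (0.28 ± 0.06) and Cct5 (0.14 ± 0.05) completed the higher ones. Lower were Cct7, at 5890 and 5981 in the knockdown, against 6906 and 6520 in the control (-0.18 ± 0.05), and Cct3, at 4422 and 4389 in the knockdown, against 4783 and 4850 in the control (-0.13 ± 0.05). Cct3 was lower at 3 of 5 probe sets, by up to 0.31 on the log2 scale. The brightest probe set of Cct4 gave 0.08 ± 0.04, and 2 of its 7 tested ones were higher. The second probe set of Cct7 was at 0.02 ± 0.05, and the mean of its probe sets, -0.08, did not pass. Calls at the brightest probe set thus went both ways on the deposited scale. With quantile scaling Cct4 (0.17) was called higher as well, while Cct7 at -0.09 and Cct3 at -0.02 did not pass, so that 6 subunits were higher and none lower. With spike-in centring Tcp1 alone of the higher subunits kept its call. Cct8, Cct5, Cct7 and Cct3 were named after their values were seen.

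**Figure D4:**
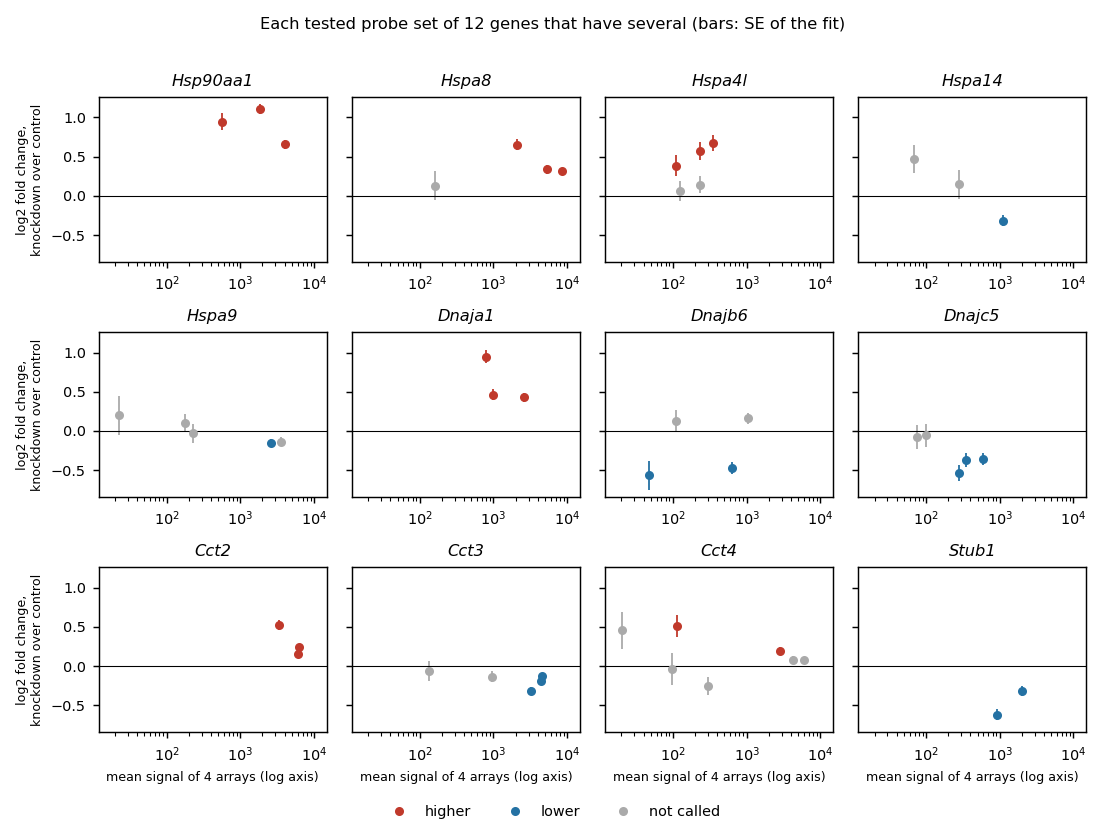
Log2 fold change (knockdown over control, bars are the SE of the limma fit) of every tested probe set of 12 genes with several, against the mean signal of the 4 arrays on a log axis. All tested probe sets of Hsp90aa1, Dnaja1, Cct2 and Stub1 were called in 1 direction, while Dnajb6, Hspa14, Hspa9 and Cct4 hold values on both sides of 0.

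Of the 75 tested genes 44 had more than 1 tested probe set. On the deposited scale no gene among them had probe sets called in opposite directions. In 8 of the 44 every tested probe set was called, in 22 only some were and in 14 none. The brightest probe set did not pass while another did in 7 genes, so calls at the brightest probe set miss some changes. In 13 genes at least 2 probe sets were called, the brightest among them, and in 9 of these the brightest had the smallest called change, as in Hsp90aa1, Hspa8, Dnaja1, Hsph1 and Stub1.

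The partners of the mitochondrial chaperonin were called in opposite directions. Hspd1 and Hspe1 encode HSP60 and its lid HSP10, which fold imported proteins together, and the genes lie head to head on chromosome 1. Hspd1 read 3598 and 3888 in the knockdown, against 3334 and 3187 in the control, and was higher (0.20 ± 0.05, adjusted p = 0.012, limma). Hspe1 read 3800 and 3727 in the knockdown, against 4854 and 4910 in the control, and was lower (-0.37 ± 0.05, adjusted p = 3.85e-05, limma). The second probe set of Hspe1, at 1938 and 1969 in the knockdown, against 2264 and 2505 in the control, was lower as well (-0.28 ± 0.06). Groups were separate at all 3 probe sets. The call of Hspe1 held on every scale, while Hspd1 was at 0.06 and not called with spike-in centring, and it also lost its call without knockdown replicate 2 (0.14) or without control replicate 2 (0.17).

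Taken within each array, the difference between the genes does not depend on centring, which shifts all log2 values of an array equally. Quantile scaling is no such shift, and with it Hspd1 was at 0.31 and Hspe1 at -0.28. The log2 ratio of Hspd1 to Hspe1 was -0.08 and 0.06 in the knockdown arrays, against -0.54 and -0.62 in the control arrays, a shift of 0.57. With the second Hspe1 probe set it was 0.89 and 0.98 against 0.56 and 0.35, a shift of 0.48. In each case the knockdown arrays lay above the control arrays. That order was fixed in advance, because the groups were already separate, in opposite directions, for Hspd1 and Hspe1. The exact two-sided permutation test therefore had to give p = 0.333, the smallest value that 2 against 2 arrays allow, and adds no support. Both ratios use the same Hspd1 probe set, so they are not independent. The size of such a ratio compares different probes and has no meaning, so it is the shift between arrays that counts.

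**Figure D5:**
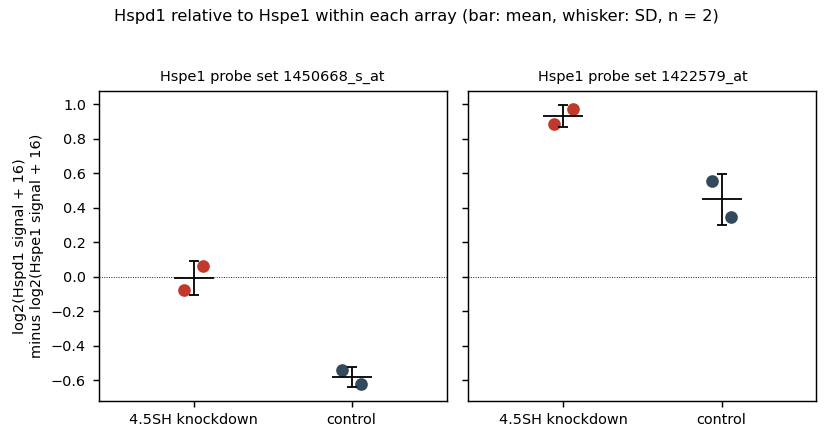
Log2 signal (+ 16) of Hspd1 minus that of Hspe1 within each array, for each Hspe1 probe set, 4.5SH knockdown left and control right, with mean and SD of 2 arrays. The ratio was higher in the knockdown arrays by 0.57 and 0.48.

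RefSeq (GRCm38.p6) lists 1 window for Hspe1 and 2 for Hspd1. The Hspe1 window and the first of Hspd1 overlap by 285 of 300 bases on opposite strands, so the Hspe1 window is shown for both. Capitals mark a run of 18 bases that holds 2 overlapping matches to the 3-unit heat shock element, searched as GAA, TTC and GAA or as TTC, GAA and TTC, in that order with any 2 bases between neighbours. These patterns are reverse complements of each other, so both strands were searched.
Hspe1, chr1:55087898-55088197, plus strand: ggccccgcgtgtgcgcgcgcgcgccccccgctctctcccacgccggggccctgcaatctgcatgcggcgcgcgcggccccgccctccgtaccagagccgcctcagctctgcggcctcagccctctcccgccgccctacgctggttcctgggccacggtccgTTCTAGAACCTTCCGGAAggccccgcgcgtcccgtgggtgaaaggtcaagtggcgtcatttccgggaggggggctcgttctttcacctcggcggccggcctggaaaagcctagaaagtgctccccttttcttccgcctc
The run lies at chr1:55088059-55088076, starting 89 bases before the Hspe1 start and 144 bases before the Hspd1 start of that window. The window of the other Hspd1 start (chr1:55088194-55088493, minus strand) lies beyond the run and held no match. On the Hspd1 strand it reads TTCCGGAAGGTTCTAGAA. The data give opposite calls for the transcripts on either side of it.

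This 3-unit motif was found in the windows of 4 of the 72 member genes that had a window in RefSeq, a share of 5.56%, against 0.662% of all 27025 genes with a window. Hspd1 and Hspe1 share the same run, which is counted for both. The others were Hsph1, which was higher, and Dnajb6, whose brightest probe set did not pass on the deposited scale. RefSeq lists 2 windows for each of these 2 genes, and the first is shown, with the motif in capitals.
Hsph1, chr5:149636266-149636565, minus strand: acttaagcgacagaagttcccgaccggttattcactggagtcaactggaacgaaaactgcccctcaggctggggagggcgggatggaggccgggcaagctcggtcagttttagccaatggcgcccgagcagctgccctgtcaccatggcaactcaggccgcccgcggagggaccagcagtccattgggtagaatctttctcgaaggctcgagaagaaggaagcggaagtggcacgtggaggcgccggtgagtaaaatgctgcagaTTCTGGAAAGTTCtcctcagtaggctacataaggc
Dnajb6, chr5:29735648-29735947, plus strand: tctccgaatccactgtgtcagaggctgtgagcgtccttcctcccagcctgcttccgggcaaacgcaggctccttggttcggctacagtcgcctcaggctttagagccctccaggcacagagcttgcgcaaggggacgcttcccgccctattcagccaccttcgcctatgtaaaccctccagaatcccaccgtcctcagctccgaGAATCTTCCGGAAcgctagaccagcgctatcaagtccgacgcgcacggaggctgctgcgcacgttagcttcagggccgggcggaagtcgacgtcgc
In Hsph1 the motif began 15 bases after the start, and in Dnajb6 46 bases before it. The 8-letter core alone (GAANNTTC or TTCNNGAA, each its own reverse complement, and part of the longer motif) was in the windows of 23 of 72 member genes, or 31.9%, against 17.0% of all genes. It was present for 9 of 15 members that were higher, 5 of 12 that were lower and 5 of 34 that did not pass, and for 4 of 11 that were not tested. The run shared by Hspd1 and Hspe1 counts among both the higher and the lower members. Members with no window were not searched, among them Hsp90aa1, Hspa8 and St13, the other 3 that were higher. These shares are descriptions, and the 8-letter core was searched after the calls were known. A match is not a bound site, and windows without these letters say nothing about heat shock factor 1.

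Hsf2, the only heat shock factor with a probe set here, was below the threshold at both of its probe sets, with mean signals of 12.5 and 7.45. Of 19 tested textbook targets of heat shock factor 1, 16 of them members, 9 were higher, 2 lower and 8 did not pass, beside 8.95% higher and 32.9% lower among all genes, with a median of 0.08. The 3 outside the rule were Cacybp, a calcyclin-binding protein that was higher by 0.59 ± 0.06 (adjusted p = 3.92e-06, limma), and Chordc1 and Serpinh1, which did not pass. Of the 16 members in this list Hsp90aa1, Hspa1b, Hsph1, Hspa8, Hspa4, Hspa4l, Dnaja1 and Hspd1 were higher. Hspe1 and Hspb1 were the 2 lower ones, and Hspa1a, Dnajb1, Bag3, Stip1, Ahsa1 and Fkbp4 did not pass. The list held 10 higher genes with quantile scaling and 5 with spike-in centring, where 16.8% and 3.83% of all genes were higher.

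Of 36 tested folding genes outside the rule 4 were higher, 16 lower and 16 did not pass, with a median of -0.15 beside -0.17 for all genes, of which 8.95% were higher and 32.9% lower. With quantile scaling 12 were higher and 11 lower (16.8% and 21.4% of all genes). Of 11 mitochondrial genes in this list none was higher and 6 were lower on the deposited scale. Pam16, a subunit of the import motor that carries mitochondrial HSP70, read 1961 and 1873 in the knockdown, against 3262 and 3203 in the control (-0.75 ± 0.05, adjusted p = 5.57e-07, limma). Htra2, a protease of the intermembrane space, read 475 and 437 in the knockdown, against 733 and 774 in the control (-0.71 ± 0.08, adjusted p = 2.41e-05, limma). Among 6 prefoldin subunits, which hand actin and tubulin to CCT, 1 was higher and 3 lower. Ubqln2, a shuttle to the proteasome, was with Cacybp the other leading gene in the upward direction (0.59 ± 0.06, adjusted p = 4.86e-06, limma). Of the 7 chaperones of the endoplasmic reticulum that the rule leaves out, Dnajb9 (0.74 ± 0.09), Hspa13 (0.65 ± 0.11) and Hsp90b1 (0.55 ± 0.08) were higher and 4 did not pass.

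The remaining 12 genes could not be tested. All 17 of their probe sets, among them those of the testis genes Hspa1l, Cct6b, Dnajb3 and Dnajb7, the muscle gene Hspb7 and the J-domain gene Dnaja4, had mean signals of 13.0 or less. Members just above the threshold, such as Dnajb14 at 28.1 and 17.0 in the knockdown, against 13.2 and 15.8 in the control, carried standard errors of up to 0.30 on the log2 scale, so that changes of the size seen in Hsp90aa1 could have been missed there.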

How the data were processed

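The authors deposited linear intensities, a single signal for each probe set, made with MAS5 per the submitters' processing notes. No label gives its version, scaling target or filter. Of 45037 probe sets that are not controls, 34945 carried 1 gene symbol in the platform annotation, 932 several and 9160 none. Symbols were updated by Entrez identifier against RefSeq (34741 matched, all 204 members included). Values were taken as log2(signal + 16), with no further scaling, so fold changes of dim genes are understated. Probe sets with a mean signal of at least 16.9, the median, were tested together (22525) with limma 3.58.1 under R 4.3.3 (lmFit and trended eBayes, two-sided, Benjamini-Hochberg over all of them). A gene took the value of its brightest tested probe set. The number of arrays limits the precision, and all p-values depend on variances that limma moderates across probe sets. The fit was also run on simulated data with independent noise and no general shift between the groups. That run cannot speak to the choice of scaling. Promoter sequences are those of RefSeq (GRCm38.p6), and matplotlib 3.10.9 (Python 3.11.15) drew the figures.

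The members and lists were chosen with earlier results of these data known. Named were the 13 of 16 core genes with a tested probe set, up to 3 called genes per role by p among those with no overlap between groups, any gene with probe sets called in opposite directions, and the 2 leading genes per direction of each outside list. Other genes given with values were chosen after these were seen. Correlations of same-numbered deviations were 0.00715, so replicate numbers were not taken to pair the arrays. Alternatives were pseudocounts of 1 and 64, 4 scalings, 2 filters, no intensity trend, a replicate block, fewer probe set types, the mean of a gene's probe sets and leaving out each array.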

Additional observations from a re-analysis of the deposited data

How the results depend on the processing

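Of 429 values of named genes under alternative settings, 368 kept their direction and side of the threshold, 52 lost the call, 3 gained one and 6 changed sign. The sign changes were those of genes that had not passed: with quantile scaling Hspa1a (0.010), Dnajb1 (0.067) and Bag3 (0.039), after centring on the tested probe sets Hspa1a (0.082) and Dnajb1 (0.028), and, with single arrays left out, Hspa1a, at -0.12 to 0.019. Quantile scaling gave 3826 higher and 3758 lower probe sets (2199 and 5811 as deposited), 14 lower member probe sets, 6 lower member genes and 12 higher outside folding genes. Centring on the tested probe sets gave 3773 higher probe sets, 16 lower member probe sets, 8 lower member genes, 11 higher outside folding genes and 1 lower target of heat shock factor 1. Spike-in centring gave 1042 higher probe sets, 14 higher and 41 lower member probe sets, 6 higher and 24 lower member genes and 5 higher targets. Without the filter 1241 probe sets were higher and 1 target was lower, a count also found on the brightest 25%. Without the intensity trend there were 1354 higher and 3778 lower probe sets, and 16 and 11 member probe sets. In that fit 7 member genes were higher and 5 lower (4.94% and 21.5% of all genes), and 2 outside folding genes were higher. The cause was not tested.

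Leaving out 1 array each gave 1200 to 1976 higher and 4297 to 5265 lower probe sets, 21 to 32 higher and 20 to 24 lower member probe sets, 11 to 17 higher and 10 to 12 lower member genes, 7 to 9 higher and 1 lower target, and 3 to 5 higher and 13 to 16 lower outside folding genes. The lowest higher counts came without knockdown replicate 2. With a replicate block, where numbers were not taken to pair arrays, 17 member genes were higher and 17 lower. Dnajb4 lost its call there (adjusted p = 0.0509, limma). The group sizes and dim signals limit what could be called.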
